A study of Mus musculus with 34 samples.

Results

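The SP and KLF transcription factors described here were Sp1, Sp2, Sp3, Sp4, Klf2, Klf4, Klf6, Klf7, Klf10 and Klf13, 10 of the 23951 genes with a value in each library. They were chosen by name, because the study found the motif of this family at the promoters of genes that were lower after loss of Hdac1. RNA was sequenced from the hippocampus of 20 mice and from GFAP+ nuclei of the cortex of 7 mice, with 1 library per mouse. All mice carried floxed Hdac1 alleles (Hdac1f/f) and were male and 13 months old in the methods, with 13 to 14 months on the labels of the control and Hdac1 cKO hippocampi. The hippocampal groups were 4 control mice (Hdac1f/f without Cre or transgene), 5 Hdac1 cKO mice (Nestin-Cre added to Hdac1f/f), 6 5XFAD mice (no Cre, but the 5XFAD transgenes, a model of familial Alzheimer's disease) and 5 compound mice (Hdac1f/f with both Nestin-Cre and 5XFAD). The nuclei came from 3 control and 4 Hdac1 cKO mice, stained for GFAP and NeuN and sorted. Nestin-Cre acts in neural precursors, so neurons and astrocytes lose Hdac1 while microglia keep it, and no group has a deletion in astrocytes or in neurons alone.

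SP and KLF proteins share a set of zinc fingers that bind GC boxes and the related CACCC boxes, and many of them compete for the same sites. SP proteins act mainly through promoters without a TATA box. KLF proteins differ in the partners that their amino-terminal parts recruit. Klf2, Klf4, Klf6 and Klf7 are mostly described as activators, whereas Klf10 and Klf13 bind the Sin3A corepressor, through which HDAC1 and HDAC2 are brought to promoters.

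The promoters of the factors hold the motif that the family itself binds. The 300 bases around the start site (250 before it and 50 after) were taken from RefSeq for 9 of the 10 genes, 12 promoters in all, and each was located in mm9 by its only exact match. Klf10 had no promoter in the set used, so none was searched. The GC box core GGGCGG, read on both strands, occurred in 10 of the 12 promoters and at least 1 promoter of each of the 9 genes, and in 35.7% of all 32851 mouse promoters of that length. The longer form GGGGCGGGG, which contains the core, occurred in 5 of the 12 promoters and in 11.4% of all. The CACCC box CCACCC occurred in 6 of the 12 and in 31.5% of all. Sp3 and Sp4 each had a promoter with 5 copies of the core, and Sp1 and Klf4 had 4. A match of letters describes a sequence and does not show that a factor sits there.

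The stretches before the start sites of Klf2 and Klf6 are printed because the results below turn on these genes, with the GC box cores in capitals. They lie on the plus strand of mm9 at chr8:74842711-74842960 for Klf2, whose gene spans chr8:74842932-74845555 in the mm9 annotation and so begins inside this stretch, upstream of the RefSeq start site. The Klf6 stretch is chr13:5860485-5860734, and the gene spans chr13:5860735-5869639.
Klf2: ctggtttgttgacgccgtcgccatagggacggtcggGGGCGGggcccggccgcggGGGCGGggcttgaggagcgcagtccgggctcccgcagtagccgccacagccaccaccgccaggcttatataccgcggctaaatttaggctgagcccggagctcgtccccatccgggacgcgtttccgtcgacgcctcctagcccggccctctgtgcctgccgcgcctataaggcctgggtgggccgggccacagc
Klf6: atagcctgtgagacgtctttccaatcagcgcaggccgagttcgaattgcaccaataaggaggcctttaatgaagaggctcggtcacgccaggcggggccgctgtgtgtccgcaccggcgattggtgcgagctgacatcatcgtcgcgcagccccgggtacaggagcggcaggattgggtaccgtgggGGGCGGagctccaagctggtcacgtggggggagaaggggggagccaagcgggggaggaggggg
Klf2 had 2 cores, both within the longer form, and 1 CACCC box on the other strand. Klf6 had 1 core, from 63 to 58 bases before the start site, and neither of the other forms.

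Among the 10 factors, Klf13 and Klf7 were the highest in the control hippocampus on the FPKM scale and Klf4 the lowest. Values are FPKM, the fragments of a gene scaled to the length of its transcript and to the mapped fragments of the library, as deposited. Klf13 stood at 27.7 ± 0.847 FPKM (SD, n = 4) and Klf7 at 26.3 ± 2.82 FPKM, and their ranges overlapped. Sp3 followed at 8.54 ± 1.35 FPKM, below all values of Klf7 and above all values of Klf10, which was next at 4.33 ± 1.43 FPKM. From Klf10 down, through Klf6 (3.52), Klf2 (3.26), Sp2 (2.41), Sp4 (2.00) and Sp1 (1.92) to Klf4 (1.34 ± 0.802 FPKM), each gene overlapped the next in its range over mice. Sp1, the founding member of the family, thus stood next to last among the 10 factors on the FPKM scale. Sp3, which binds the same sites and can act as activator or repressor, was higher in FPKM than Sp1 in every control mouse. FPKM divides by transcript length, but these libraries read 3′ ends, where fragments need not grow with length. The order between genes on the FPKM scale is therefore uncertain. In fragments at the depth of control mouse 1 the order differed. Sp1 (47.7) then lay below Klf13 (559) and Klf7 (97.1). It lay above Klf6 (46.1), Klf10 (40.2), Sp2 (22.2), Klf2 (17.1) and Klf4 (12.4). Fragments of Sp3 and Sp4 could not be recovered there.

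In control GFAP+ nuclei the order on the FPKM scale was different. Klf7, a factor of axon growth in neurons, was the highest at 84.9 ± 22.5 FPKM (SD, n = 3), with no overlap with Klf13 at 22.1 ± 4.56 FPKM. In fragments at the depth of control mouse 1 of the nuclei, Klf13 (1120) lay above Klf7 (789). Sp3 (15.6 ± 1.67 FPKM) and Klf6 (15.3 ± 2.56 FPKM) overlapped each other, and Klf6 lay above all values of Sp4 (6.28 ± 2.23 FPKM). Sp1, Klf2, Klf10 and Sp2 lay between 4.46 and 2.86 FPKM, and Klf4 was again the lowest at 1.88 ± 0.227 FPKM. The hippocampal libraries read 3′ ends of tissue RNA and the nuclear libraries read whole transcripts of sorted nuclei, so levels of the 2 data sets stand side by side and were not tested against each other.

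**Figure D1:**
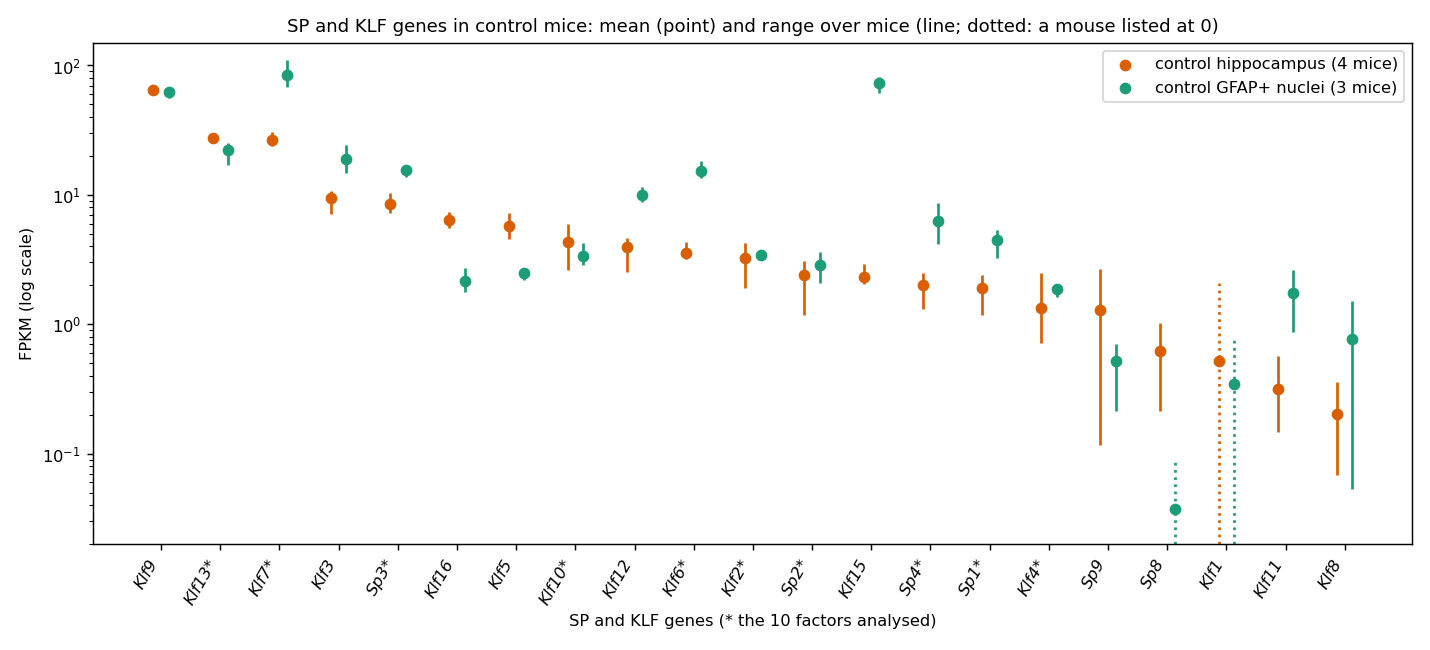
Level of each SP and KLF gene in control mice, in FPKM on a log scale, with points at the mean and lines over the range of the mice (orange, hippocampus, 4 mice; green, GFAP+ nuclei, 3 mice). Genes are ordered by their mean in the control hippocampus, with the 10 factors starred and genes under 0.1 FPKM there left out. Klf9, Klf13 and Klf7 led in the hippocampus, and Klf7, Klf15 and Klf9 in the nuclei.

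Other genes of the family reached similar levels. Klf9, a factor induced by glucocorticoid and thyroid hormone, was the highest of all SP and KLF genes in the control hippocampus at 65.1 ± 4.13 FPKM (SD, n = 4). Klf15, which is known from metabolic control and from astrocytes, stood at 2.31 ± 0.398 FPKM in the hippocampus and at 73.8 ± 11.3 FPKM (n = 3) in GFAP+ nuclei. Of the 16 other family genes, 7 passed the filter of a mean of at least 0.5 FPKM in each hippocampal comparison and 9 in the nuclei, while all 10 factors passed it in every comparison.

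The genotype labels were checked on Hdac1 itself. Its mean was 7.93 ± 2.20 FPKM in control hippocampi (SD, n = 4) and lower, at 2.74 ± 0.279 FPKM, in Hdac1 cKO hippocampi (n = 5), and stood at 8.23 ± 1.56 FPKM (n = 6) in 5XFAD and 1.92 ± 0.516 FPKM (n = 5) in compound mice, so mice with and without Nestin-Cre did not overlap. In GFAP+ nuclei the groups overlapped, with 9.91 to 22.3 FPKM in control and 5.80 to 11.5 FPKM in Hdac1 cKO. The nuclei carried astrocyte markers (Gfap, Aqp4, Aldh1l1, Slc1a2, Slc1a3, Gja1 and Aldoc), summing to 2650 to 3258 FPKM against 932 to 1274 FPKM in hippocampus, but also markers of other cells. The oligodendrocyte markers Mbp and Mog stood at 250.2 to 638 FPKM and at 7.10 to 36.5 FPKM in the nuclei, so Mbp alone was above the sums of the neuronal, mural and endothelial markers. Those of neurons (Rbfox3, Snap25, Syt1 and Camk2a) summed to 151 to 222 FPKM, those of mural cells (Pdgfrb, Rgs5 and Acta2) to 88.3 to 127 FPKM and the 8 of endothelial cells to 37.1 to 77.8 FPKM. Relative depth ranged from 0.754 to 2.35 in hippocampus and from 0.869 to 1.26 in nuclei, each relative to control mouse 1. Ttr, the defining transcript of the choroid plexus, ranged from 53.8 to 20146 FPKM between hippocampi, with medians of 15194 FPKM in control, 105 in Hdac1 cKO, 4306 in 5XFAD and 160 in compound mice, and control mouse 1 had 576 FPKM, the lowest of its group. Of 7 choroid plexus markers, 7 were called lower in Hdac1 cKO and 5 in compound mice against control, and none in 5XFAD mice, where 3.36%, 4.24% and 2.95% of all genes were called. No choroid plexus marker passed adjustment, with adjusted p-values in limma of 0.145 to 0.302 for the 7 in Hdac1 cKO and 0.318 to 0.44 for the 5 in compound mice. In GFAP+ nuclei 2 of the 7 (Folr1 and Ttr) were called higher after loss of Hdac1, where 2.58% of all genes were called, both with an adjusted p of 0.984 in limma. Of 9 immediate early genes, 2 were called higher in Hdac1 cKO against control, Junb with an adjusted p of 0.155 and Nr4a1 with 0.078 in limma. Against Hdac1 cKO, 2 of the 9 were called lower in compound mice, where 3.55% of all genes were called. These were Arc, with an adjusted p of 0.312, and Nr4a1, with 0.133 in limma. In the interaction of Hdac1 loss and 5XFAD, 3 were called lower (Arc, Junb and Nr4a1), where 4.07% of all genes were called. Their adjusted p-values in limma were 0.298 to 0.549. In bulk tissue, a change in the number of cells of a type and a change in RNA per cell cannot be told apart.

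Klf6 was the factor that changed with genotype in the hippocampus. It is a zinc finger activator known as an early response to tissue injury and inflammation, and as a regulator of Cdkn1a, and it was higher in every mouse with the 5XFAD transgenes than in every mouse without them. In the control mice Klf6 stood at 3.21, 3.38, 3.18 and 4.32 FPKM. In the Hdac1 cKO mice it stood at 5.33, 4.14, 3.37, 3.97 and 5.26 FPKM. These groups overlapped, and control mouse 4 lay above 3 of the 5 Hdac1 cKO mice. In the 5XFAD mice it stood at 6.86, 6.56, 6.52, 5.92, 8.74 and 5.93 FPKM, and in the compound mice at 6.41, 6.50, 7.61, 7.06 and 5.97 FPKM. The ranges of the 5XFAD and compound mice overlapped each other, and the lowest of these mice lay above the highest Hdac1 cKO mouse.

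**Figure D2:**
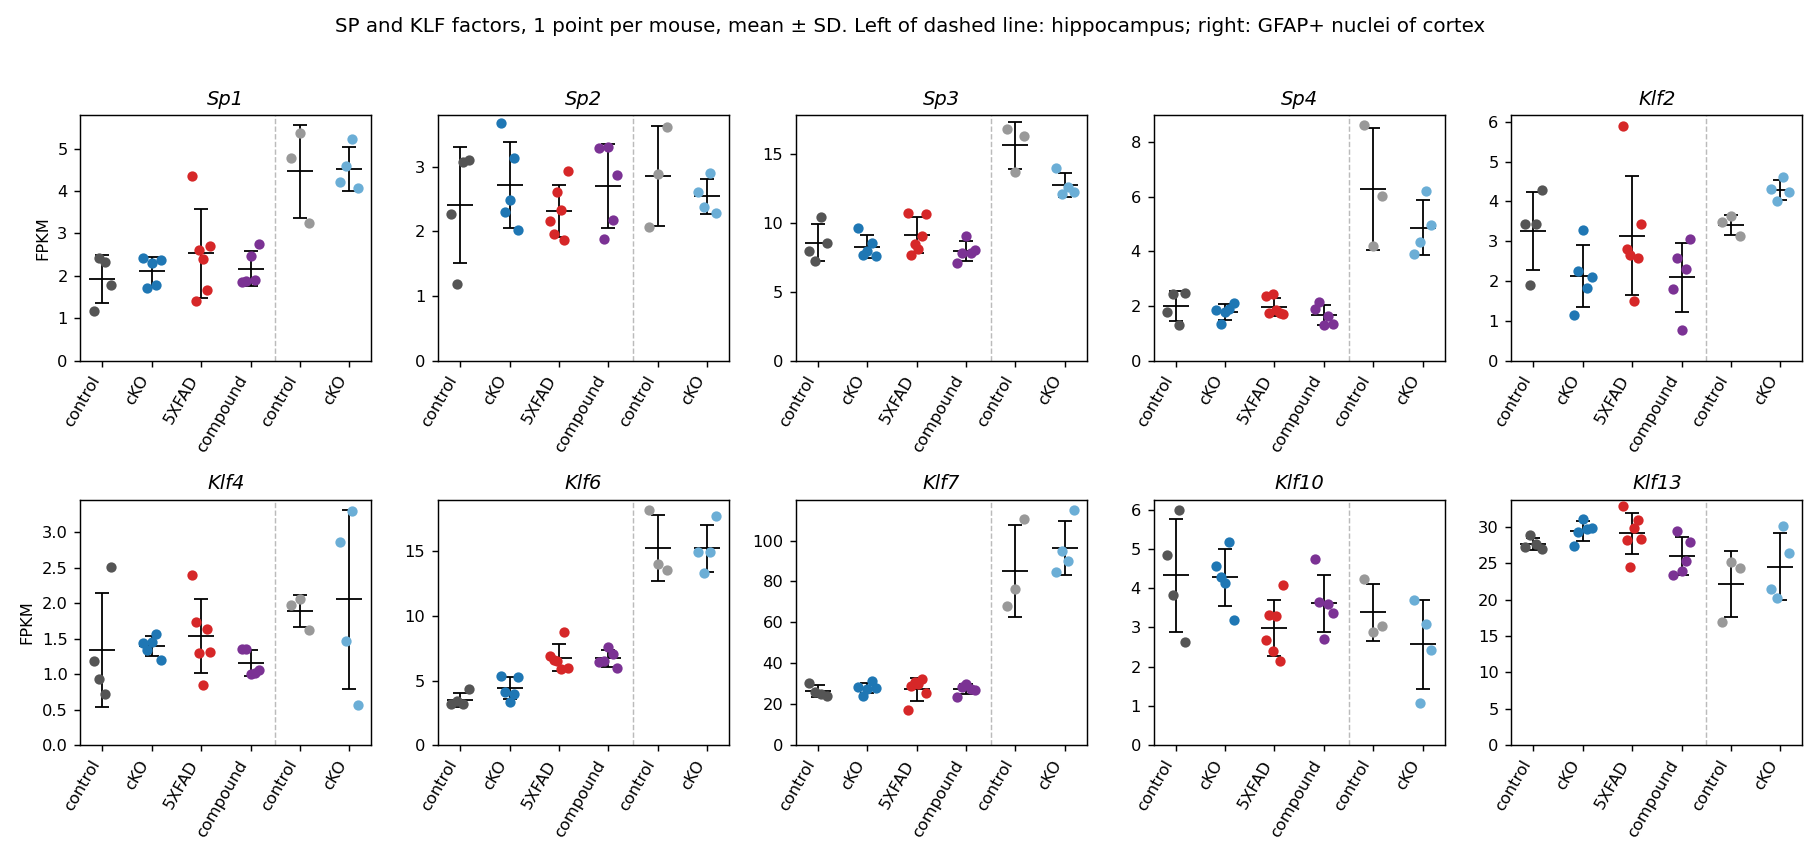
FPKM of the 10 factors, 1 point per mouse, with the group mean and SD in black, for the 4 hippocampal groups (left of each dashed line) and the GFAP+ nuclei (right). Klf6 was at 3.18 to 5.33 FPKM in hippocampi without the 5XFAD transgenes and at 5.92 to 8.74 FPKM in those with them.

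Against control, the mean of Klf6 was 1.92-fold higher in 5XFAD and 1.90-fold higher in compound mice. On the log2(FPKM + 1) scale used for testing, which understates the change of low genes, the difference was 0.77 ± 0.13 (SE) in 5XFAD mice, with a Benjamini-Hochberg adjusted p of 0.0155 over all genes in limma. It was 0.77 ± 0.14 in compound mice, with an adjusted p of 0.0242 in limma. A gene was called when its fold change on that scale was at least 1.5 and its unadjusted p under 0.05. By this rule Klf6 was the 1 factor of 10 called in each of the 2 comparisons, where 2.95% of all genes tested were called for 5XFAD and 4.24% for compound mice. Adjusted p-values under 0.05 were rarer, at 0.708% of genes for 5XFAD and 0.662% for compound mice. The groups did not overlap for 2.9% and 4.27% of genes, and among the factors this held for Klf6. A two-sided exact permutation test of the mice gave Klf6 p = 0.00476 for 5XFAD and p = 0.00794 for compound mice, the smallest that these group sizes allow. The 2 comparisons share the same 4 control mice.

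The comparison of compound with Hdac1 cKO mice shares no control mouse with the comparison of 5XFAD with control. Klf6 was 1.52-fold higher in compound mice by the ratio of means, and the groups did not overlap (exact permutation p = 0.00794, two-sided, the smallest possible). On the log2(FPKM + 1) scale the difference was 0.52 ± 0.13 (SE), below the 1.5-fold limit, with an adjusted p of 0.0915 in limma, so it was not called. Here 3.55% of all genes tested were called and 3.34% did not overlap. When the fold was taken from the means, or a pseudocount of 0.1 was used, Klf6 was called, at log2 differences of 0.60 and 0.61.

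Over all 20 hippocampi, with terms for Hdac1 loss and 5XFAD in 1 fit, Klf6 was higher with 5XFAD by 0.65 ± 0.09 (SE) on the log2(FPKM + 1) scale, with an adjusted p of 8.25e-05 in limma. In that fit 2.24% of genes were called for 5XFAD and 2.14% had an adjusted p under 0.05. For Hdac1 loss no factor was called and 1 (Klf2) had an unadjusted p under 0.05, where 1.16% of genes were called and 9.07% had such a p, and Klf6 differed by 0.11 (95% interval -0.08 to 0.30). The interaction of both terms was -0.25 for Klf6 (95% interval -0.63 to 0.12), with an adjusted p of 0.689 in limma, and no factor was called or had an unadjusted p under 0.05, where 4.07% of genes were called and 8.97% had such a p. Compound and 5XFAD mice had Klf6 means of 6.71 and 6.76 FPKM, and the 95% interval of their difference was -0.26 to 0.25.

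Most markers of microglia, and Gfap among those of astrocytes, were higher in the same groups as Klf6. The sum of 6 microglial markers (Csf1r, Cx3cr1, Aif1, P2ry12, Tmem119 and C1qa) was 88.6 to 120 FPKM in control and 101 to 118 FPKM in Hdac1 cKO mice, against 174 to 237 FPKM in 5XFAD and 186 to 345 FPKM in compound mice. Against control, 4 of the 6 rose in 5XFAD mice and the same 4 in compound mice (Aif1, C1qa, Csf1r and Cx3cr1), where 2.95% and 4.24% of all genes were called. Adjusted p-values in limma were under 0.05 for 3 of the 6, and Aif1 had 0.131 in 5XFAD and 0.329 in compound mice. None of the 6 was at 0 throughout a group. Of the 7 astrocyte markers, Gfap rose in 5XFAD mice and Gfap and Aqp4 in compound mice, and their summed levels overlapped, at 932 to 1062 FPKM without and 1049 to 1274 FPKM with the transgenes. Aqp4 was also called for Hdac1 loss over all mice, at 0.67 with an adjusted p of 0.0601 in limma. The part of these cells in the difference of Klf6 was not tested. The labels give no batch, and a batch shared by the mice with the transgenes cannot be told apart from the genotype.

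The genes whose levels followed Klf6 most closely over the 20 hippocampi, of 12995 with a mean of at least 1 FPKM, were Slc11a1, Ccl4 and Aspg. Slc11a1, a metal transporter of phagocytes, had a Pearson r of 0.901 on the log2(FPKM + 1) scale. Ccl4, a chemokine, had 0.891, and Aspg, an asparaginase, had 0.880. Part of each value is the difference between groups that these genes share with Klf6, and after each group's mean was removed r was 0.417, 0.561 and 0.410. Mean levels of Ccl4 were 0.686 FPKM in control, 1.21 in Hdac1 cKO, 11.3 in 5XFAD and 28.1 in compound mice, so its compound mean was above its 5XFAD mean, whereas those of Klf6 were 6.71 in compound and 6.76 FPKM in 5XFAD mice. These are descriptions over mice that were chosen as the highest of many genes.

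In GFAP+ nuclei Klf6 did not separate the genotypes. Control nuclei had 18.2, 14.0 and 13.6 FPKM and Hdac1 cKO nuclei had 14.97, 13.3, 14.99 and 17.7 FPKM. The difference was 0.0014 (95% interval -0.38 to 0.38) on the log2(FPKM + 1) scale, with an adjusted p of 0.999 in limma. No 5XFAD nuclei were analysed here, so the comparison by 5XFAD was not made in nuclei.

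Klf2, which maintains the quiescent, flow-adapted state of endothelial cells, had the lowest estimates of the 10 after loss of Hdac1 in the hippocampus, but none was called. In the hippocampus it stood at 3.42, 1.91, 3.42 and 4.28 FPKM in control and at 1.14, 2.25, 3.29, 1.83 and 2.10 FPKM in Hdac1 cKO mice. In compound mice it stood at 1.80, 2.57, 0.757, 2.29 and 3.04 FPKM, and in 5XFAD mice it ran from 1.49 over a median of 2.73 to 5.90 FPKM. All of these groups overlapped, and control mouse 2 lay among the Hdac1 cKO values.

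The mean of Klf2 in Hdac1 cKO mice was 0.652 of the control mean, a difference of -0.45 ± 0.22 (SE) on the log2(FPKM + 1) scale with an adjusted p of 0.462 in limma. In compound mice it was 0.642 of the control mean, a difference of -0.48 ± 0.26 with an adjusted p of 0.547 in limma. Over all 20 mice, Hdac1 loss gave -0.43 (95% interval -0.79 to -0.06), with an adjusted p of 0.452 in limma, below the 1.5-fold limit. Without control mouse 2, Klf2 met the rule for a call in Hdac1 cKO mice (-0.62, adjusted p 0.337 in limma) and in compound mice (-0.66, adjusted p 0.465 in limma), and it also did so in compound mice without compound mouse 5 (-0.59, adjusted p 0.509 in limma). Leaving out other mice brought the difference nearer to 0, to -0.32 in Hdac1 cKO mice without Hdac1 cKO mouse 1 and to -0.29 in compound mice without compound mouse 3, the library with 3 fragments of Klf2. With a pseudocount of 0.1 it was called over all 20 mice at -0.59. Klf2 rested on few fragments, between 3 and 56 per hippocampus.

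Endothelial cells were followed by 8 markers. Their sum (Cldn5, Pecam1, Cdh5, Flt1, Tek, Esam, Kdr and Slco1a4) was 19.96 to 26.2 FPKM in control, 17.5 to 20.8 FPKM in Hdac1 cKO, 19.4 to 26.9 FPKM in 5XFAD and 13.2 to 18.5 FPKM in compound mice. None of the 8 was called in Hdac1 cKO mice, where 3.36% of all genes were. In compound mice 1 of the 8 was called, where 4.24% of all genes were, namely Pecam1, with 0.549 to 3.15 FPKM in control and 0.315 to 0.528 FPKM in compound mice and an adjusted p of 0.423 in limma. The part of endothelial RNA in the values of Klf2 was not tested. Choroid plexus markers were called lower in the same groups without passing adjustment. With log2(Ttr + 1) as a covariate, an alternative chosen after seeing the data, Klf2 differed by -0.52 in Hdac1 cKO mice (adjusted p 0.787 in limma) and by -0.61 in compound mice (adjusted p 0.696 in limma).

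Klf2 was not called in GFAP+ nuclei. Control nuclei had 3.47, 3.62 and 3.13 FPKM and Hdac1 cKO nuclei had 4.30, 4.01, 4.62 and 4.22 FPKM, so the groups did not overlap, with a mean 1.26-fold higher after loss of Hdac1. A two-sided exact permutation test gave p = 0.0286, the smallest possible, whereas limma, which shares the spread between genes, gave 0.26 ± 0.19 (SE; 95% interval -0.16 to 0.69) with an adjusted p of 0.984. The estimates for Klf2 in hippocampus and in nuclei were not tested against each other. In this comparison 2.58% of all genes tested were called and 4.7% had an unadjusted p under 0.05 in limma, while none of the 10 factors was called or had such a p, and 5.72% of genes did not overlap, against 1 of the 10. The endothelial sum was 47.7 to 77.8 FPKM in control and 37.1 to 46.1 FPKM in Hdac1 cKO nuclei, and 1 of the 8 markers was called, Cldn5, which fell with an adjusted p of 0.984 in limma.

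The SP proteins were not called in any of the 9 comparisons. Sp1, the general activator of housekeeping promoters, ranged from 1.17 to 4.36 FPKM over the 20 hippocampi, and its highest estimate was 0.24 (95% interval -0.24 to 0.72) on the log2(FPKM + 1) scale in 5XFAD mice. Sp2, which binds few GC boxes and is needed for the cell cycle of neural progenitors, ranged from 1.19 to 3.68 FPKM. Sp3 ranged from 7.05 to 10.7 FPKM and Sp4, a factor enriched in neurons that regulates NMDA receptor genes, from 1.29 to 2.49 FPKM. In GFAP+ nuclei Sp3 was at 13.7 to 16.8 FPKM in control and 12.1 to 14.0 FPKM in Hdac1 cKO, groups that overlapped, with a difference of -0.27 (95% interval -0.61 to 0.07).

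Of the other activators, Klf4, known from pluripotency and from endothelium, ranged from 0.715 to 2.50 FPKM in the hippocampus. Klf7 ranged from 16.99 to 32.3 FPKM there and from 68.2 to 115 FPKM in nuclei. In Hdac1 cKO against control, Klf7 differed by 0.08 (95% interval -0.14 to 0.30) in hippocampus and by 0.20 (-0.22 to 0.61) in nuclei, so a 1.5-fold change lay outside the interval in hippocampus and inside it in nuclei. Of the factors that bind Sin3A, Klf10, an early target of TGF-β, ran from 2.64 to 6.00 FPKM in control and from 2.15 to 4.08 FPKM in 5XFAD mice. The 5XFAD mean of Klf10 was 0.690 of the control mean, with a difference of -0.40 ± 0.20 (SE) and an adjusted p of 0.498 in limma. It was -0.25 without control mouse 3 and -0.57 without control mouse 4. Over all 20 mice, 5XFAD gave Klf10 a difference of -0.29 (95% interval -0.55 to -0.04), with an adjusted p of 0.324 in limma, opposite in sign to Klf6 and not called.

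Klf13, the other Sin3A-binding factor, had the narrowest spread between hippocampi relative to its mean. It ranged from 23.4 to 32.9 FPKM over the 20 hippocampi, with means of 27.7, 29.5, 29.1 and 26.0 FPKM in control, Hdac1 cKO, 5XFAD and compound mice. The interaction was -0.25 (95% interval -0.50 to 0.01) with an adjusted p of 0.568 in limma. A 1.5-fold change of FPKM + 1 lay outside the 95% interval of Klf13 in all 9 comparisons, narrowly so in nuclei (-0.28 to 0.58). A 1.5-fold change of FPKM itself is slightly smaller on that scale, so it was not excluded in nuclei.

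**Figure D3:**
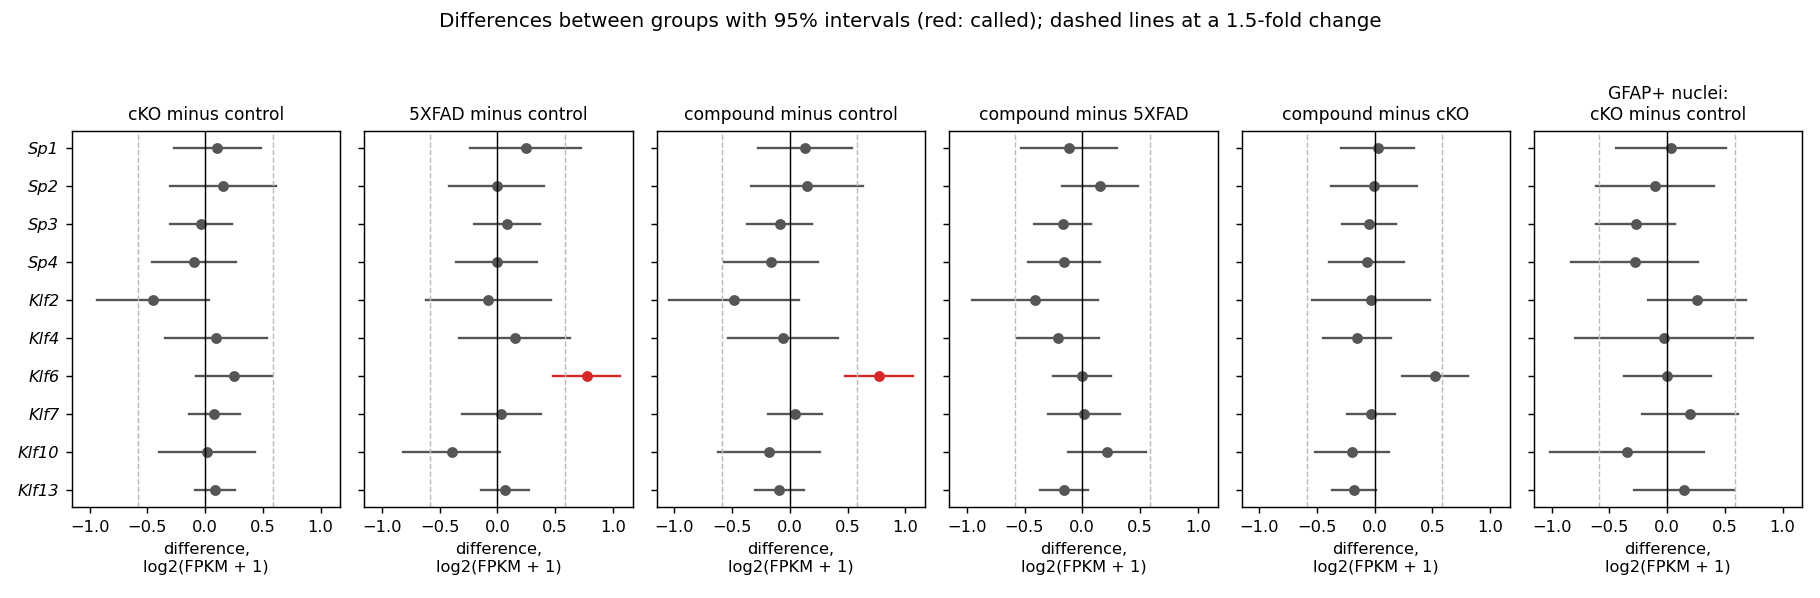
Difference of each factor on the log2(FPKM + 1) scale in 6 comparisons, the second-named group subtracted from the first, with 95% intervals from limma. Dashed lines mark a 1.5-fold change of FPKM + 1. Klf6 (red where called) was at 0.77 in 5XFAD and compound mice against control and at 0.52 in compound against Hdac1 cKO mice, while Klf2 had its lowest values at -0.45 and -0.48.

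Taking the 10 factors as a list, none was called or had an unadjusted p under 0.05 in limma in Hdac1 cKO against control hippocampus, where 3.36% of all 14265 genes tested were called and 11.7% had an unadjusted p under 0.05. None had groups that did not overlap there, against 4.23% of genes. The median difference of the 10 was 0.08 and of all genes -0.00068. Of the 9 factors other than Klf6, 7 had a 95% interval within a 1.5-fold change of FPKM + 1 either way. For factors of few FPKM that limit is wider than a 1.5-fold change of FPKM, which is not excluded for all of them. In compound against 5XFAD mice none was called, had an unadjusted p under 0.05 or separated the groups, where 1.28% of genes were called, 6.61% had such a p and 0.607% separated them, with a median of -0.14 for the factors and -0.00046 for all genes. The medians were 0.05 in 5XFAD and -0.07 in compound mice against control, and -0.01 in GFAP+ nuclei. In nuclei Klf6, Sp1 and Klf13 had intervals within a 1.5-fold change of FPKM + 1. For the other 7 factors a change of that size was not excluded at this number of mice. For Sp1 and Klf13, with upper limits of 0.51 and 0.58, a 1.5-fold rise of FPKM itself was not excluded either.

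The 16 other family genes, Sp5 to Sp9 and Klf1 to Klf17 outside the 10, had none called in any of the 9 comparisons, among the 7 tested in hippocampus and 9 in nuclei. With 1.16% to 4.24% of all genes called per comparison, 0 of so few is close to that background. In Hdac1 cKO against control hippocampus the median difference of the 7 was 0.255, and that of all genes -0.000684. Of these 7, Klf9 had groups that did not overlap there, against 4.23% of all genes. It ran from 60.7 to 69.9 FPKM in control and from 72.1 to 86.8 FPKM in Hdac1 cKO mice. Of 14 cofactors, among them the corepressors Sin3a, Sin3b, Sap30, Ctbp1, Ctbp2 and Ncor1 and the acetyltransferases Ep300, Crebbp and Kat2b, the only one called was Hdac1, which fell where it was deleted, with an adjusted p of 0.984 in limma in the nuclei. Of 10 other factors that bind GC-rich sites (Egr1, Egr2, Egr3, Egr4, Wt1, Maz, Vezf1, Zfp148, Zfp281 and Ctcf), 8 were tested and none was called in a comparison of 2 groups, where 1.28% to 4.24% of all genes were. In the interaction 1 of the 8 was called, against 4.07% of all genes, namely Egr4 at -0.76, with an adjusted p of 0.433 in limma.

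Of 13 genes known as targets of these factors, 10 were tested in most comparisons. The number called was 1 of 10 in Hdac1 cKO against control (3.36% of all genes), 1 of 10 in compound against Hdac1 cKO (3.55%), 2 of 12 in GFAP+ nuclei (2.58%), 1 of 10 in the interaction (4.07%) and 0 in the other 5 comparisons. Thbd, thrombomodulin, which Klf2 and Klf4 activate, rose in Hdac1 cKO hippocampus from 3.78 ± 1.38 (SD, n = 4) to 6.21 ± 1.40 FPKM (n = 5), with an adjusted p of 0.240 in limma, while Klf2 had a negative estimate there. Thbd was also called in the interaction, at -0.83 with an adjusted p of 0.393 in limma. Grin2a, an NMDA receptor subunit regulated by Sp4, fell from 7.81 ± 1.16 FPKM in Hdac1 cKO to 4.40 ± 0.636 FPKM in compound mice (n = 5 each), with an adjusted p of 0.0138 in limma, where Sp4 differed by -0.07 (95% interval -0.39 to 0.26). Cdkn1a, the cell cycle inhibitor p21 and a target of Klf4, Klf6 and Sp1, fell in Hdac1 cKO nuclei from 7.63 ± 1.66 (n = 3) to 4.16 ± 1.14 FPKM (n = 4), with an adjusted p of 0.984 in limma. It was not called in the hippocampal comparisons in which Klf6 was. Grin2b rose in the same nuclei from 15.7 ± 5.07 to 30.2 ± 4.19 FPKM, with an adjusted p of 0.978 in limma.

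How far these values can be read depends on the number of fragments behind them. Within a gene the FPKM values of the libraries, after allowing for relative depth, were whole multiples of 1 fragment (within 0.05 of a fragment) for all factors but Sp3, and Sp4 in hippocampus. The hippocampal libraries held 363 to 1415 fragments of Klf13, 42 to 212 of Klf6 and 7 to 40 of Klf4. For Klf6, counting alone accounts for a coefficient of variation of 8.54% to 13.1% in the 4 groups, and the mice differed by 9.44% to 19.4%. For Klf2, counting accounts for 21.4% to 34.4%, and the mice differed by 30.2% to 47.6%. Klf7 and Klf13 had similar FPKM in hippocampus, but medians of 158 and 919.5 fragments, since FPKM divides by transcript length. In the nuclei the medians were 870 and 1211 fragments. A level on the FPKM scale thus does not give the number of fragments behind it.

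**Figure D4:**
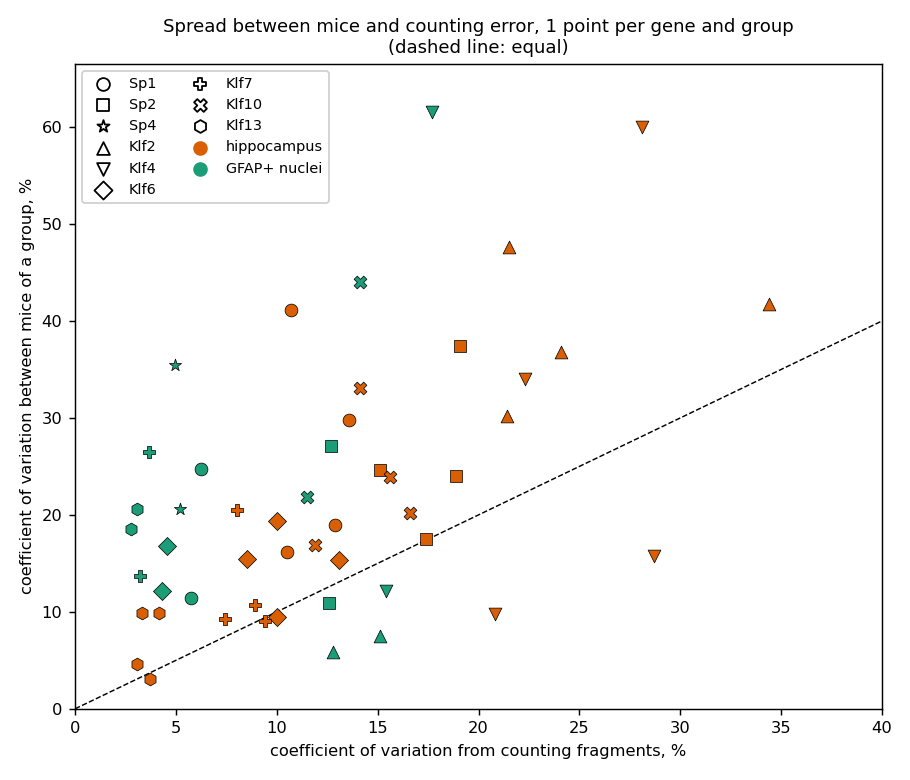
Coefficient of variation between the mice of a group against that from counting fragments alone, both in percent, 1 point per gene and group, for factors whose fragments could be recovered. Points above the dashed line spread more than counting gives. Klf13 lay at the left, with 3.06% to 9.93% between hippocampi, and Klf2 in hippocampus at the right.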

How the data were processed

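The authors prepared hippocampal libraries by 3′ Digital Gene Expression and nuclear libraries by SMART-Seq, aligned reads with Tophat2 and computed FPKM with Cufflinks 2.0.0 on mm9. The deposited FPKM values, 1 per gene and mouse, were used as they stand. Of 34 samples, 27 were used, and a control of the GFAP+ nuclei and the ChIP-seq samples were not analysed here. The labels give no batch. Values were tested as log2(FPKM + 1), leaving out genes whose mean over the fitted mice was under 0.5 FPKM, with limma 3.58.1 in R 4.3.3 (trend, robust), including only the groups compared. Calls used the thresholds in the study's methods, a fold change of 1.5 and an unadjusted p under 0.05, with Benjamini-Hochberg adjusted p beside them. The fold was taken on FPKM + 1, so low genes needed a larger fold in FPKM to be called. All 10 factors are named, with values for each mouse where a factor was called or its groups did not overlap. Fits were tested on simulated data, with changes larger than 1.5-fold planted in genes above a minimum level. That test does not cover smaller changes or the lowest of the factors. Python 3.11.15 with pandas 2.3.3 and scipy 1.17.1 did the rest. Some listed genes are counted but not reported by name here. The factors and lists were chosen with earlier results of these data known. Alternatives were another pseudocount, filter, scaling, limma option, fit, fold or call rule, a replicate block, each mouse left out and, chosen after seeing the data, log2(Ttr + 1) as covariate.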

Additional observations from a re-analysis of the deposited data

Results flagged for a closer look

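Klf6 in 5XFAD mouse 5 stood at 8.74 FPKM, apart from the other 5 mice of its group, which ran from 5.92 to 6.86 FPKM. Its gap to the next mouse was 0.665 of the range of the group, above Dixon's 95% critical value for 6 samples. It was 1 of 50 combinations of factor and group tested in this way, and chance alone gives about 1 in 20. The library held 212 fragments of Klf6, the most of any hippocampus. With that mouse left out, Klf6 remained called in 5XFAD mice.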

How the results depend on the processing

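No difference of Klf2, Klf6, Klf10 or Klf13 that was recomputed under the alternatives changed sign. The call of Klf6 in 5XFAD and compound mice against control held under each alternative and without each mouse, with log2 differences of 0.71 to 0.94 and 0.73 to 0.93, but its adjusted p in limma ran from 0.0017 to 0.228 and from 0.0018 to 0.209, and was above 0.05 with the replicate block (0.228 and 0.135) and with log2(Ttr + 1) as covariate (0.0706 and 0.209), and reached 0.0547 and 0.0806 without single mice. The number of factors called moved from 0 to 1 in compound against Hdac1 cKO mice with a pseudocount of 0.1 or the ratio of means (Klf6), and from 0 to 1 for Hdac1 loss over all mice with a pseudocount of 0.1 (Klf2). With each mouse left out in turn it was 0 to 1 in Hdac1 cKO and 1 to 2 in compound mice against control (Klf2). The cause was not tested. The replicate block gave Klf6 a difference of 0.73 in 5XFAD and 0.81 in compound mice and changed no call. Mice with the same number were different animals, and their deviations correlated at -0.113 to 0.0778, so the numbers do not pair them. Under the scalings the median difference of all genes stayed between -0.026 and 0.028. A batch shared by the mice with 5XFAD cannot be told apart from the genotype. Among the factors whose fragments could be recovered in hippocampus, depth limits Klf2 and Klf4 most.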

Other observations

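Whether factors moved together from mouse to mouse was looked at separately in the 11 hippocampi with and the 9 without the 5XFAD transgenes, a check chosen after the data were seen. Of 90 relations between 2 factors, none passed Benjamini-Hochberg adjustment, with a lowest adjusted p of 0.430 for Pearson's r by permutation of the mice. The largest r of the 90 was between Sp2 and Sp3 in the mice without the transgenes (r = 0.800, exact permutation p = 0.00901). The most negative in the mice with the transgenes that involved Klf6 was with Klf10 (r = -0.638, permutation p = 0.0323, Spearman's rho = -0.545, permutation p = 0.0873), and r was -0.257 without the 2 mice farthest from the median of Klf6. In the mice without them r was -0.454 (exact permutation p = 0.222).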
